A study of Mus musculus with 20 samples.

Results

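The neuronal RNA-binding splicing regulators described here are 10 genes: Elavl2, Elavl3, Elavl4, Rbfox1, Rbfox2, Rbfox3, Nova1, Nova2, Celf4 and Ptbp2. They were taken by symbol from the 37994 genes of the developmental series and the 36104 genes of a second set, and all 10 were found in both. Single cells of the mouse habenula, a small epithalamic relay between forebrain and midbrain, had been profiled on 384-well plates with Cel-seq2, which counts mRNA molecules by unique molecular identifiers (UMIs) near their 3' ends. The developmental series held 15 plates of the Brn3a-tauLacZ line, in which Brn3a is the older name of Pou4f1: 2 plates each at E11, E13, E15, E18, P4, P7 and in the adult, and 1 at E12. The sources used here say nothing of genotype at the reporter, sort gate or sex. The second set held 5 C57BL/6 plates at E18, of which 2 came from the left habenula, 2 from the right and 1 from both sides; the title of that last plate reads E1, and its other labels E18.

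All 10 proteins bind RNA in the nucleus or cytoplasm of neurons. The neuronal Elavl (Hu) proteins bind U-rich and AU-rich stretches and act on the stability, translation and splicing of neuronal transcripts. Rbfox proteins bind GCAUG, and Nova proteins clusters of a pyrimidine-CA-pyrimidine motif, beside alternative exons, where their position decides whether the exon is included or skipped. Celf4 binds UG-rich RNA, and Ptbp2, which replaces Ptbp1 as precursors become neurons, holds adult exons back in young neurons. Rbfox3 is the antigen known as NeuN, a usual marker of mature neurons.

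The members differ in the make-up of the DNA just before their transcription starts. RefSeq promoters of GRCm38.p6 were at hand for 8 members (17 start sites; none for Rbfox2 and Celf4). The following 4 lie outside annotated exons and were chosen for contrast: Elavl3 and Rbfox1 had the lowest and the highest unspliced share of the members, and Nova2 and Rbfox3 were at their lowest and their highest in the adult. Each is the 250 bases before the start, 5' to 3' on the gene's strand, and capitals mark GGGCGG or its reverse complement CCGCCC.
Elavl3, chr9:22052024-22052273, minus strand: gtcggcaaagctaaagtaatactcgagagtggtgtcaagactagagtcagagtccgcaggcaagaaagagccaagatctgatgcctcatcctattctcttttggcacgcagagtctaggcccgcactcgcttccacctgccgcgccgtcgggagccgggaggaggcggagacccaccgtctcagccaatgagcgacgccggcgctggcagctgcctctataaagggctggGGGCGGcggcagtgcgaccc
Nova2, chr7:18925638-18925887, plus strand: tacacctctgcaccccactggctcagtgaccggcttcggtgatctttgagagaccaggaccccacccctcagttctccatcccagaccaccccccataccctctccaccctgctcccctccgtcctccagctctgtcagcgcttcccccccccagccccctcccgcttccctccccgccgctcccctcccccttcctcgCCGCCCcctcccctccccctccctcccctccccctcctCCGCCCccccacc
Rbfox1, chr16:5884543-5884792, plus strand: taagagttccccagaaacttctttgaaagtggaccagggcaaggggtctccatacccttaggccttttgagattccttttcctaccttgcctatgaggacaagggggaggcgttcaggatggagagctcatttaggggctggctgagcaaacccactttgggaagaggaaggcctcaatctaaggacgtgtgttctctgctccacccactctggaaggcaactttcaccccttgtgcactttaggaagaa
Rbfox3, chr11:118761042-118761291, minus strand: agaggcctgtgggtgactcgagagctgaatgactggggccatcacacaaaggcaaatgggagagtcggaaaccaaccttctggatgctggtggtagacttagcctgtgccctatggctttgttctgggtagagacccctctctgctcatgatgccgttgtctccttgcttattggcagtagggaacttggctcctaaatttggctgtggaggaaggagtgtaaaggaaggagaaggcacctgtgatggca
The Elavl3 window was 61.6% G and C with 20 CpG dinucleotides and 1 motif. The Nova2 window was 71.2% G and C with 10 CpGs and 2 motifs. In the Rbfox1 window 51.2% of bases were G or C, with 2 CpGs and 0 motifs. The Rbfox3 window, which lies inside the annotated gene, held 52.8% G and C, 3 CpGs and 0 motifs. Over all 32851 promoters of this length the median was 52.4% G and C with 6 CpGs, and 32.74% held the motif on either strand. A further Rbfox1 start inside the gene (chr16:7069585-7069834), also outside exons, had 48.4% G and C, 6 CpGs and 0 motifs. The remaining windows outside exons varied within a gene. Those of Elavl2 held 54.4% G and C with 14 CpGs and 1 motif, and 70% with 18 CpGs and 3 motifs. Those of Elavl4 held 53.6% with 14 CpGs and 44% with 4 CpGs, both with 0 motifs. No link of these measures to level or unspliced share was tested. The printed Elavl3 and Nova2 windows thus lay above both medians, and the printed Rbfox1 and Rbfox3 windows near the median in G and C content and below it in CpGs; the absence of these letters says nothing about any factor.

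Levels are given as CPM, in which each gene's count is scaled to one fixed total of all gene counts summed over the cells of a plate. After filtering, 3729 cells of 5756 wells were kept in the series and 1082 of 1920 in the second set; depth per plate was 758697 to 7760370 counts and 1849860 to 6586450 counts. Since plates held different cell mixtures, levels are given for cells with at least 1 Pou4f1 UMI, here Pou4f1-positive cells; Pou4f1 encodes a transcription factor of habenula projection neurons. There were 2933 such cells in the series, 21 to 304 a plate, and 727 in the second set. A list of 10 pan-neuronal markers summed to 7200 to 18024 CPM in them. Gpr151, Tac2, Chat or Slc18a3, markers of later habenula neurons, were at 0 in some plates up to E18. In 3 plates these cells also carried RNA of other cells. A 4-gene choroid plexus list was at 2483 CPM in E13 plate 2 and 1420.0 CPM in E18 plate 1, against at most 22.5 CPM in the other plates of both sets. In adult plate 1, with 56 kept cells, an oligodendrocyte list was at 3631 CPM. These 3 plates are named where a result rests on them. Well barcodes are reused from plate to plate, and 0 kept wells held identical profiles. Nothing says that plates of a stage came from separate animals, so p-values measure the spread between plates.

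The 10 members followed different courses in Pou4f1-positive cells. Elavl2 was high in embryos and fell after birth, Rbfox1 fell at 2 steps, and Nova1 fell between E18 and P4. Nova2, Elavl3 and Ptbp2 were lowest in the adult, and Rbfox3 was highest there. In edgeR's quasi-likelihood test for any difference among the 7 stages with 2 plates, 8 of 10 members passed an adjusted p (Benjamini-Hochberg over all genes) of 0.05, beside 49.4% of all 16353 genes tested. Elavl2 had an adjusted p of 5.88e-06, Nova2 of 0.00149, Rbfox1 of 0.00282, Nova1 of 0.00375, Elavl3 of 0.00484 and Rbfox3 of 0.00595. Elavl4 (adjusted p = 0.0268) and Ptbp2 (adjusted p = 0.0305) passed in this fit, but Elavl4 missed the threshold without E11 plate 1 or 2, P4 plate 1 or 2, P7 plate 1 or 2 or adult plate 1, and Ptbp2 without any of these or adult plate 2 (highest adjusted p 0.084 and 0.112). Rbfox2 (adjusted p = 0.385) and Celf4 (adjusted p = 0.165) did not pass. When all kept cells of a plate were summed, 4 of 10 passed (Elavl2, Rbfox1, Nova1 and Nova2), beside 46.4% of 17453 genes; Nova2 was lost without E11 plate 2, adult plate 1 or adult plate 2 (highest adjusted p 0.076). In those sums the step from E18 to P4 was called lower for Elavl2 (-1.51 ± 0.25), Rbfox1 (-2.04 ± 0.44) and Nova1 (-0.94 ± 0.27), beside 10.4% of genes, and that from P7 to the adult for Elavl2 (-1.12 ± 0.27), beside 1.82%; of 23 alternative fits these calls held in 22, 20, 14 and 8. The first was lost without P4 plate 2, and the Rbfox1 call without either P4 plate and on spliced counts alone. The Nova1 call and the last one were lost without single plates of several stages, those of E11, P4 and P7 among them, without the 3 plates named above, and with each step fitted on its own 4 plates. The last was also lost with a minimum of 2000 counts per cell and without cells of high counts.

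**Figure D1:**
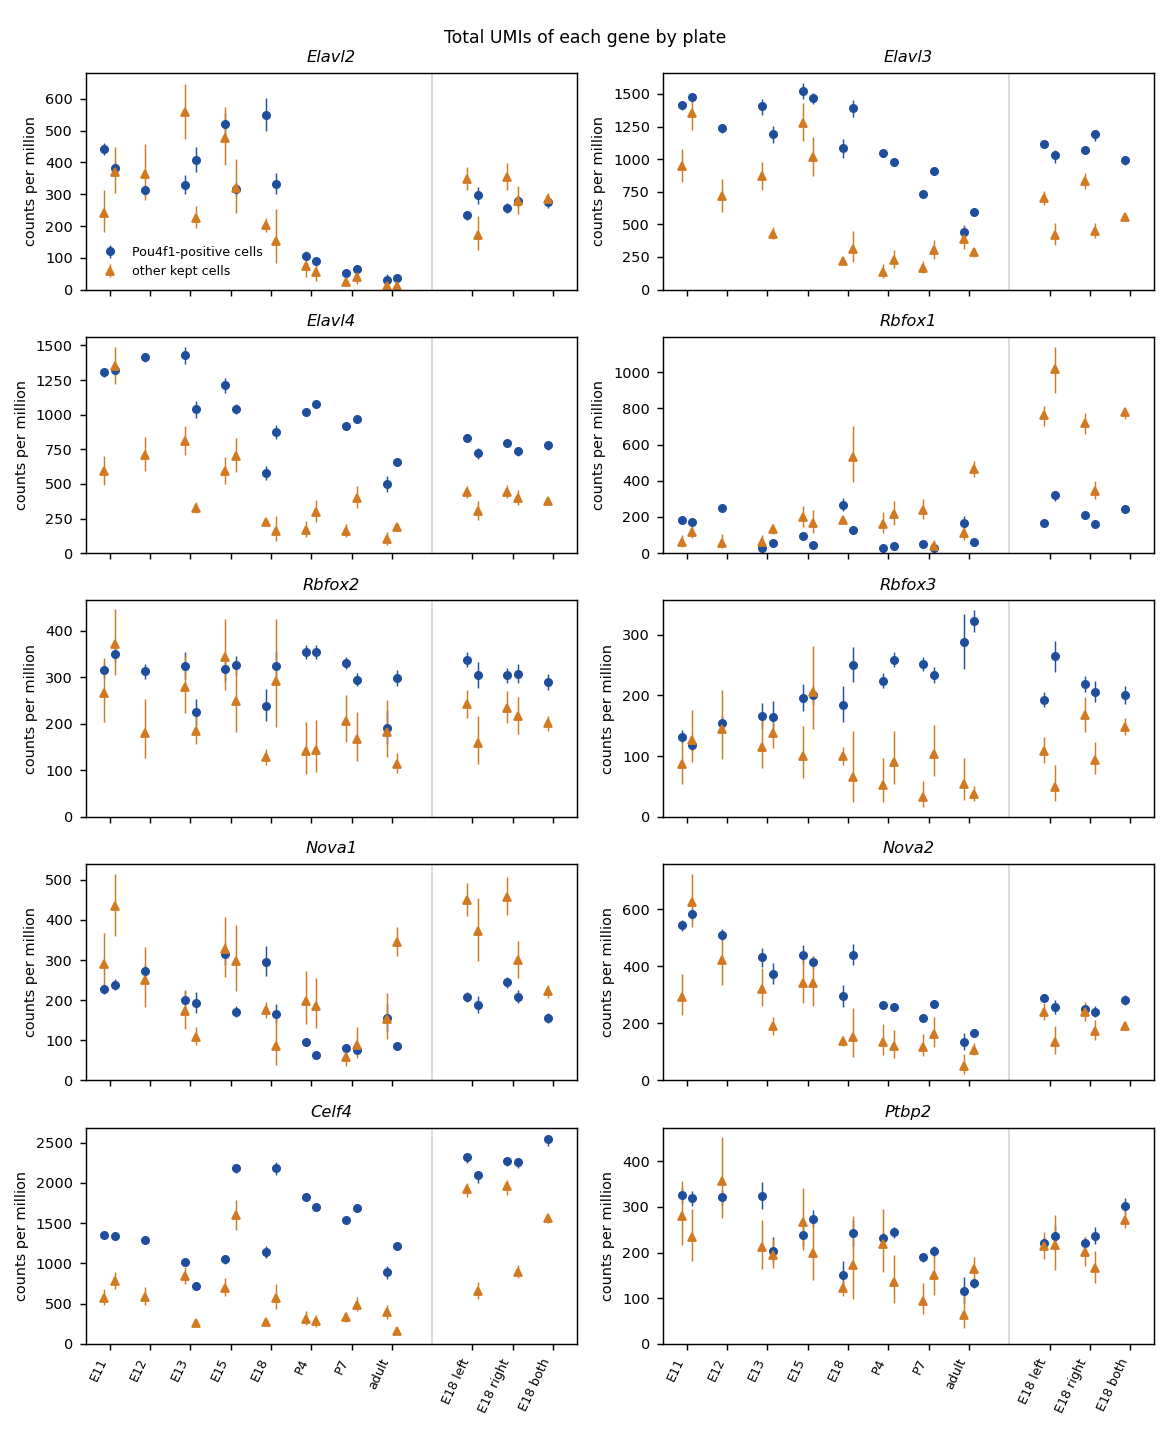
Level of each member by plate, in CPM (y axis, from 0, own scale per gene) against stage (x axis), in Pou4f1-positive cells (circles) and the other kept cells (triangles); bars are exact 95% Poisson intervals for counting error, and the grey line separates the second set. In Pou4f1-positive cells of the series Elavl2 lies at 314 to 551 up to E18 and at 30.6 to 105 from P4 on, with the second set at 233 to 297, while Rbfox3 reaches 287 and 323 in the adult.

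Among the neuronal Elavl genes, Elavl2 had the largest change over stages, and Elavl3 declined more slowly. Elavl2, on chromosome 4 (91250763 to 91400785, minus strand, GRCm38), was at 442 and 384 CPM at E11, 314 at E12, 330.2 and 408 at E13, 521 and 315 at E15, and 551 and 333 at E18. It was at 105 and 89.3 CPM at P4, 51.1 and 66.3 at P7, with 30.6 and 35.6 in the adult. Every plate up to E18 thus lay above every later plate, and the 2 plates of P4, of P7 and of the adult were in falling order without overlap. From E18 to P4 it fell by 2.00 ± 0.28 on the log2 scale (± SE throughout for fold changes; adjusted p = 0.000781, edgeR), from 442 ± 154 to 97.2 ± 11.2 CPM (SD, n = 2 plates). In this step 3 members were called lower and 0 higher, beside 10.4% of all genes called lower and 9.97% higher. The Elavl2 call held in all 25 alternative fits of this step (highest adjusted p 0.0175). Differences of -0.72 ± 0.27 from P4 to P7 and -0.90 ± 0.29 from P7 to adult did not pass (adjusted p = 1 and 0.11); with spliced counts alone the last step passed, at -1.05 ± 0.27 (adjusted p = 0.0447, beside 2.67% of genes lower).

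Elavl3 and Elavl4 encode the 2 relatives that persisted. Elavl3 (chromosome 9, 22015005 to 22052023, minus strand) was at 1414 and 1475 CPM at E11, 1238 at E12, 1406 and 1195 at E13, 1526 and 1472 at E15, and 1083 and 1389.7 at E18. Its later values were 1043 and 979 CPM at P4, 735 and 906 at P7, with 440.4 and 599 in the adult. All series plates from P4 on lay below all earlier plates of the series, though no single step between stages passed (adjusted p of at least 0.113, edgeR). Elavl4 (chromosome 4, 110203722 to 110351909, minus strand) was at 1307 and 1326 CPM at E11, 1418 at E12, 1428 and 1040.2 at E13, 1216 and 1041 at E15, and 578 and 874 at E18. It stood at 1023 and 1077 CPM at P4, 919 and 967 at P7, with 500.3 and 656 in the adult. Both E18 plates were thus below both P4 plates, a difference of 0.69 ± 0.28 that did not pass (adjusted p = 0.107). The lower of them, at 578 CPM, was E18 plate 1, which carried choroid plexus RNA, whose part was not tested. The adult-to-P7 contrast was alike in both genes: adult minus P7 was -0.77 ± 0.25 for Elavl3 (adjusted p = 0.113) and -0.82 ± 0.28 for Elavl4 (adjusted p = 0.129). Elavl3 shares its strand with the overlapping coding gene Gm49318, so its counts are uncertain to that extent.

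The make-up of each family follows from these counts. Of all neuronal Elavl UMIs in Pou4f1-positive cells, the Elavl2 share was 13.0% ± 1.36 at E11 (SD, n = 2), 18.9% ± 8.53 at E18, 4.51% ± 0.479 at P4 and 2.96% ± 0.28 in the adult. The Elavl4 share was 29.9% ± 5.33 at E18 and 48.7% ± 2.19 at P4. Of the Rbfox UMIs, the Rbfox3 share was 19.7% ± 1.80 at E11 and 45.9% ± 1.98 in the adult. When only spliced UMIs were counted, Rbfox3 made up 19.7% ± 3.28 of the family at E11 and 63.4% ± 7.51 in the adult, and Rbfox1 13.1% ± 0.237 and 0.711% ± 0.0623. Over all UMIs the Rbfox1 share had no single direction, at 27.9% ± 1.61 at E11, 8.87% ± 4.72 at E13, 28.4% ± 14.5 at E18, 5.21% ± 0.782 at P4 and 17.3% ± 12.0 in the adult. The plates of a stage differed: E18 plates 1 and 2 were at 38.6% and 18.2%, and adult plates 1 and 2 at 25.8% and 8.77%. In both stages plate 1, which carried RNA of other cells, had the higher share, and the part of that RNA in it was not tested. The adult share of Rbfox3 was thus above that of E11 in both total and spliced UMIs. These shares are of molecules counted, not of molecules per length, and no test was run on them.

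**Figure D2:**
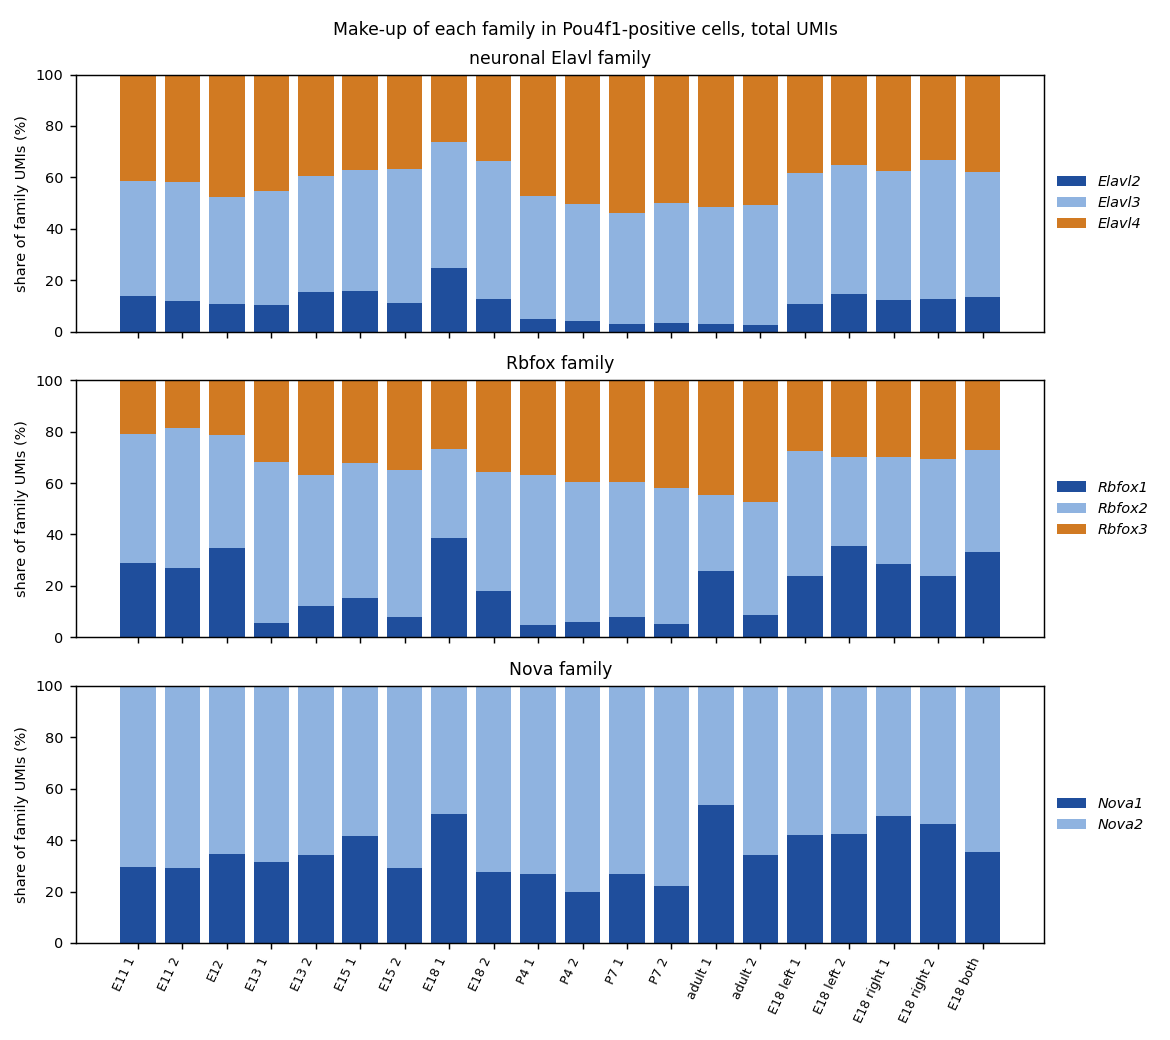
Share of each family's UMIs (y axis, %, stacked to the whole) taken by each member, per plate (x axis), in Pou4f1-positive cells. The Elavl2 segment is 24.9% in E18 plate 1 and 12.9% in E18 plate 2 and at most 4.85% on the 6 later plates; the Rbfox3 segment is 18.4% to 21.4% at E11 and E12 and 44.5% and 47.3% in the adult.

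Rbfox1, a very long gene on chromosome 16 (5885355 to 7411526, plus strand), had the most uneven course. It was at 183 and 172 CPM at E11, 251 at E12, 28.7 and 54.1 at E13, 93.0 and 44.7 at E15, and 266 and 127 at E18. After birth it was at 28.2 and 37.5 CPM at P4 and 51.0 and 29.1 at P7, and adult plates 1 and 2 stood at 167 and 60.0. The levels at E11, E12 and E18 were above all of E13, E15, P4 and P7. Rbfox1 fell by 2.25 ± 0.51 on the log2 scale from E11 to E13 (adjusted p = 0.0469, edgeR), the only member called in that step, in which 0.734% of all genes were lower. It fell by 2.37 ± 0.49 from E18 to P4 (adjusted p = 0.00644). The first call was lost without any one plate of E11, E13, P4 or P7 (highest adjusted p 0.195), and the second without P4 plate 1.

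Most Rbfox1 UMIs were unspliced, and its spliced molecules were few after E12. In Pou4f1-positive cells 197, 211 and 253 spliced UMIs were counted on the E11 and E12 plates, and between 1 and 33 on each later plate of the series. As spliced CPM these were 51.4 and 57.9 at E11, 71.2 at E12, 1.69 and 7.88 at E13, 14.2 and 12.3 at E15, and 8.16 and 14.2 at E18. From P4 to the adult all 6 plates were between 2.46 and 5.90 spliced CPM. By spliced counts the drop from E11 to E13 was 3.69 ± 0.51 on the log2 scale (adjusted p = 0.00463, beside 0.707% of genes lower), while E18 to P4 gave -1.22 ± 0.52 (adjusted p = 0.109). The second fall in total counts was therefore not called in spliced molecules.

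Rbfox2 and Rbfox3 took other courses. Rbfox2 (chromosome 15, 77078990 to 77307004, minus strand), which is expressed in many tissues, lay between 191 and 355 CPM on all 15 plates, and its stage means ranged from 245 ± 76.6 in the adult to 355 ± 0.311 at P4 (SD, n = 2). Its lowest plates were the 3 with RNA of other cells. Rbfox3 (chromosome 11, 118489762 to 118911597, minus strand) was at 132 and 118 CPM at E11, 154 at E12, 165 and 164 at E13, 196 and 199.8 at E15, and 184 and 249.7 at E18. It was at 224 and 259 CPM at P4, 252 and 233 at P7, with 287 and 323 in the adult. Adult plates were above all others and E11 plates below all others, with the stages from E18 to P7 overlapping. By spliced counts alone the order in the series was clearer: 87.4 and 75.7 CPM at E11, 144 and 177 at E18, followed by 199.9 and 221 at P4, 239 and 230.0 at P7, with 254 and 307 in the adult. The second set, also of E18, was at 198.9 ± 52.8 spliced CPM on left plates and 186 ± 17.7 on right plates (SD, n = 2). Its plate of both sides was at 154. The spread of the left plates thus reached the P4 values. No single step passed for Rbfox3 in total counts (adjusted p of at least 0.354), although the test over all stages did.

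The Nova genes, named for the autoantigens of a neurological syndrome, both ended lower than they began. Nova1 (chromosome 12, 46694517 to 46818929, minus strand) was at 228 and 238 CPM at E11, 272 at E12, 199.5 and 194 at E13, 315 and 171 at E15, and 295 and 166 at E18. It was at 96.6 and 63.3 CPM at P4, 79.8 and 76.2 at P7, with 155 and 86.4 in the adult. All P4, P7 and adult plates of the series lay below all its earlier ones. The lowest plate of the second set, also of E18, did not lie above adult plate 1 (155 CPM). Nova1 fell by 1.34 ± 0.33 on the log2 scale from E18 to P4 (adjusted p = 0.0148, edgeR); the call was lost when E18 plate 1, P4 plate 2 or the 3 plates named above were left out (highest adjusted p 0.173). Nova2 (chromosome 7, 18925888 to 18965319, plus strand) was at 543 and 584 CPM at E11, 510.3 at E12, 431 and 373 at E13, 441 and 414 at E15, and 294 and 439 at E18. Its values were 264 and 258 CPM at P4, 217 and 266 at P7, with 133 and 167 in the adult. Nova2 declined in smaller steps, none of which passed (adjusted p of at least 0.112, edgeR). Its lowest value up to E18 in the series was E18 plate 1.

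Celf4 and Ptbp2 complete the group. Celf4 (chromosome 18, 25477632 to 25754157, minus strand), whose product acts on many synaptic mRNAs, was at 1354 and 1342 CPM at E11, 1288 at E12, 1019.5 and 725 at E13, 1049 and 2186 at E15, and 1142 and 2186 at E18. Later plates held 1826 and 1705 CPM at P4, 1544 and 1693 at P7, with 891 and 1220.2 in the adult. Plates of the same stage thus differed about as much as stages did at E15 and E18, and no stage difference was called (adjusted p = 0.165 by edgeR). One was called without E18 plate 1, which carried choroid plexus RNA (adjusted p = 0.0447), and with no filter on low counts (1.69e-05), but not without all 3 plates with RNA of other cells (0.195). An 8-gene list of habenula neuron markers, Pou4f1 among them, was at 1899 and 4475 CPM in the same cells of E15 plates 1 and 2, and at 984 and 4678 at E18; its part in the Celf4 values was not tested. Ptbp2 (chromosome 3, 119718742 to 119784466, minus strand) was at 325 and 319.5 CPM at E11, 322 at E12, 324 and 205 at E13, 238 and 274 at E15, and 152 and 242 at E18. It was at 233 and 245 CPM at P4, 189.6 and 203 at P7, with 115 and 133 in the adult, below all other plates. Ptbp1, the relative that Ptbp2 replaces, made up 3.20% to 12.4% of their joint UMIs except on E13 plate 2 (30.3%) and E18 plate 1 (34.0%), both with choroid plexus RNA; the part of those cells in this share was not tested.

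Most members were higher in Pou4f1-positive cells than in the other kept cells of the same plates. Over the 15 series plates, with plate as a block, 8 of 10 were called higher and 0 lower, beside 19.2% of 10148 genes called higher and 16.6% lower (edgeR). The log2 difference was 1.59 ± 0.21 for Celf4, 1.51 ± 0.19 for Elavl4, 1.27 ± 0.22 for Elavl3 and 1.19 ± 0.25 for Rbfox3. Nova2 followed with 0.78 ± 0.12, Elavl2 with 0.61 ± 0.17, Rbfox2 with 0.59 ± 0.14 and Ptbp2 with 0.37 ± 0.11. Their adjusted p-values ran from 7.3e-06 (Elavl4) to 0.013 (Ptbp2). The Elavl2 call was lost without the 3 plates with RNA of other cells. The median of the 10 members was 0.69 and that of all genes 0.03.

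Rbfox1 and Nova1 did not share this pattern. Rbfox1 was at -0.91 ± 0.37 (adjusted p = 0.0622) and Nova1 at -0.22 ± 0.20 (adjusted p = 0.445) in the series. Rbfox1 was called lower with DESeq2 (-0.91, adjusted p = 0.0304), with no filter on low counts (-0.67) and without the 3 plates with RNA of other cells (-1.14, adjusted p = 0.0445). It was also called lower without E11 plate 1 or 2, the E12 plate, E18 plate 1 or adult plate 1 (-1.01 to -1.10), and not without any other single plate (-0.74 to -0.94). Nor was Rbfox1 called after thinning to 2000 UMIs, or with cells sorted by the pan-neuronal markers in place of Pou4f1. On the 5 plates of the second set both were lower in Pou4f1-positive cells: the log2 difference was -1.66 ± 0.18 for Rbfox1 (adjusted p = 0.000168) and -0.78 ± 0.15 for Nova1 (adjusted p = 0.00423), beside 10.8% of 12963 genes lower. There Rbfox1 was at 167, 320.0, 209, 160.1 and 244 CPM in Pou4f1-positive cells (left 1 and 2, right 1 and 2, both sides), against 761, 1017, 718, 346 and 778 in the others. All 5 plates went the same way, as they did for Nova1, at 154 to 244 against 221 to 458 CPM. In all kept cells of this set 86.6% to 95.1% of a plate's Rbfox1 UMIs were unspliced. No fit of this comparison was made on spliced counts alone. Among the other cells, those with Sox2 or Sox9 UMIs, as in progenitors and astrocytes, held Rbfox1 at 235 to 1029 CPM in the second set, from 5 to 109 cells a plate. Levels in the remaining other cells, such as 40 with Neurog1 or Neurog2 UMIs on the plate of both sides, are not given here. Which of these cells held the most Rbfox1 was not tested. Elavl3, Elavl4, Rbfox2, Rbfox3 and Celf4 were higher in Pou4f1-positive cells in that set, beside 6.71% of genes higher, with differences of 0.58 to 1.01. Elavl2 was at -0.08 ± 0.20 there (adjusted p = 0.862).

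Pou4f1-positive cells were also more deeply sequenced. Their median depth was 9086 to 23964 counts a cell on the series plates, and that of the other cells 3098 to 11601. When every kept cell with at least 2000 UMIs was first thinned to that number and then sorted anew (1899 positive and 1692 negative cells), 3 members stayed called, beside 5.17% of 4968 genes higher. These were Celf4 (0.45 ± 0.10), Elavl4 (0.44 ± 0.08) and Elavl3 (0.39 ± 0.10). Thinning also leaves out cells below 2000 UMIs and moves cells with few Pou4f1 UMIs to the negative side, so these smaller differences are not those between the same cells.

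**Figure D3:**
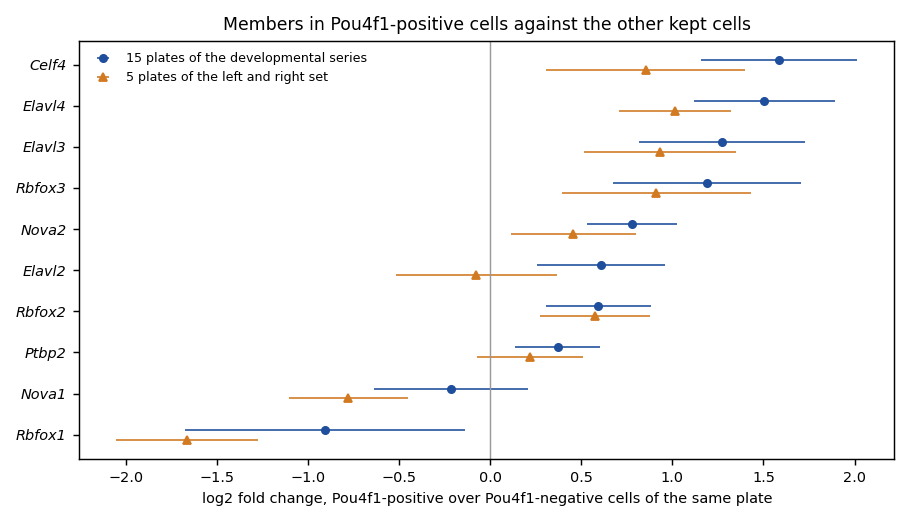
Log2 difference of each member (rows) between Pou4f1-positive and other kept cells of the same plate (x axis), over the 15 series plates (circles) and the 5 plates of the second set (triangles). Bars are approximate 95% intervals worked out from the fold change and F statistic of the edgeR test. Celf4, Elavl4, Elavl3 and Rbfox3 lie right of 0 in both sets, and Rbfox1 left of it, at -0.91 and -1.66.

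The unspliced share of UMIs differed widely between members. Over all kept cells of the series it was 85.5% for Rbfox1, 36.0% for Rbfox3, 35.9% for Rbfox2, 31.7% for Celf4, 28.9% for Ptbp2 and 28.6% for Elavl2. It was 19.2% for Nova2, 17.8% for Nova1, 10.2% for Elavl4 and 5.50% for Elavl3. The median of 12225 coding genes with at least 200 UMIs was 11.2%, and Rbfox1 lay above 97.1% of them. The length outside exons is 1522 kb in Rbfox1, 416 kb in Rbfox3, 268 kb in Celf4, 219.9 kb in Rbfox2, 143 kb in Elavl4, 142 kb in Elavl2, 116 kb in Nova1, 56.6 kb in Ptbp2, 31.1 kb in Nova2 and 30.1 kb in Elavl3. The longest and the shortest of them had the highest and the lowest share, while Elavl4 had a low share for its length and Ptbp2 and Nova2 had larger shares than the longer Nova1. Across 12214 coding genes Spearman's correlation of the 2 measures was 0.80, given as a description, since genes of a library share its depth and chemistry.

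Set beside the median of coding genes in the same class of length, most members held less unspliced RNA. Genes with 200 to 500 kb outside exons had a median share of 64.8%, against 36.0%, 35.9% and 31.7% in Rbfox3, Rbfox2 and Celf4, all below the lower quartile of 50.0%. For 100 to 200 kb the median was 43.0% and the lower quartile 29.1%, against 28.6%, 17.8% and 10.2% in Elavl2, Nova1 and Elavl4. Elavl2 was thus only just below that quartile. These classes are wide. Rbfox2 and Celf4 lie toward the short end of theirs, and their shares were within the quartiles of the 100 to 200 kb class (29.1% to 58.3%). Ptbp2, at 28.9%, was near the median of 26.9% for 50 to 100 kb, and Rbfox1 near the 87.1% for over 500 kb. Elavl3 was near the median of 5.62% for genes under 50 kb, and Nova2 above its upper quartile of 14.1%. That class is wide, with 8527 genes of all lengths below 50 kb, and the share rises with length. It does not give the usual share at the lengths of Elavl3 (30.1 kb) and Nova2 (31.1 kb), which was not taken. How unspliced molecules were told from spliced ones and whether counting used strand is not stated in the sources. Elavl2, Rbfox2, Rbfox3, Nova2, Celf4 and Ptbp2 overlap a gene on the opposite strand, so their unspliced UMIs are uncertain. Genes annotated on the same strand also overlap Rbfox1 (1700123O21Rik, intronic), Nova1 (Gm33869, Gm48543 and Gm48542) and every other member but Elavl4 and Nova2, which adds to that uncertainty.

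**Figure D4:**
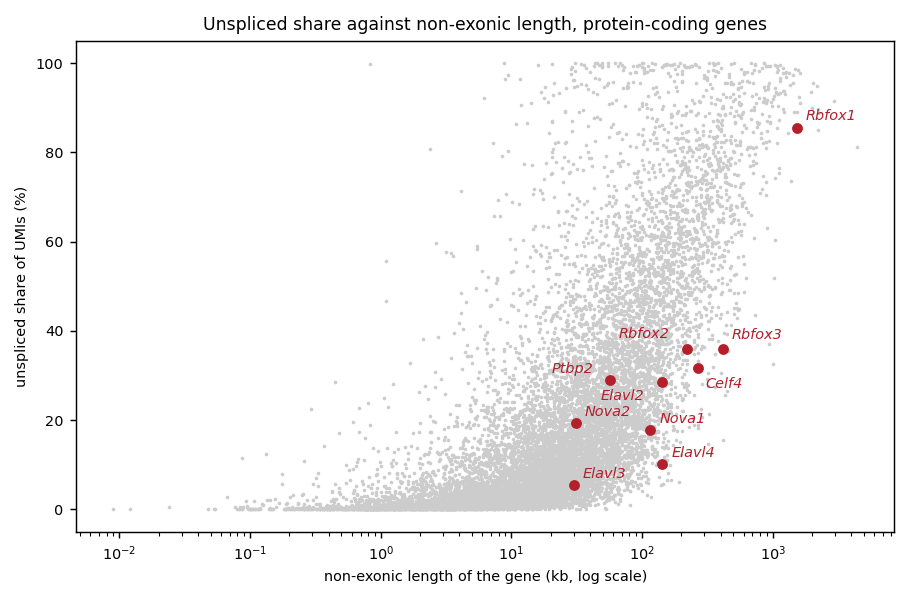
Unspliced share of UMIs over all kept cells of the series (y axis, %) against length outside exons (x axis, kb, log scale) for coding genes (grey) and the 10 members (red). The cloud rises with length; Rbfox3, Rbfox2 and Celf4, at 36.0%, 35.9% and 31.7%, and Elavl4, at 10.2%, lie in its lower part.

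Across the stages of the series, the unspliced share of Celf4 and Rbfox3 was lower after birth, and that of Rbfox1 was lowest at the start. For Celf4 the plates were at 36.9% and 34.1% at E11, 37.5% at E12, 39.2% and 47.3% at E13, 44.2% and 42.4% at E15, and 53.9% and 40.0% at E18. After birth they were at 29.1% and 27.8% at P4, 25.6% and 23.9% at P7, with 16.6% and 22.4% in the adult, below all embryonic plates. The E18 plate at 53.9% is the one with choroid plexus and progenitor RNA, whose part was not tested. In Pou4f1-positive cells alone the lower and the higher E18 plate of the series were at 40.1% and 55.3%. Rbfox3 lay at 37.5% to 52.5% on the embryonic plates of the series and at 24.7% to 35.7% on the later ones. In the second set, also of E18, Rbfox3 was at 35.2% and 35.9% on the left plates, 29.2% and 33.8% on the right and 47.2% on that of both sides, so those plates did overlap the postnatal range. Rbfox1 was at 78.2%, 73.9% and 77.8% at E11 and E12 and at 78.6% to 99.1% on the 12 later plates. Over all genes, unspliced UMIs made up 17.7% to 26.4% of a series plate and 22.5% to 29.2% of a plate of the second set.

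In a model of unspliced against spliced counts with plate as a term, 6 of 10 members changed over stages (edgeR), beside 11.5% of 15886 genes. These were Rbfox1 (adjusted p = 3.77e-18), Celf4 (2.86e-11), Rbfox3 (0.000705), Elavl3 (0.00277), Elavl4 (0.0135) and Nova1 (0.0177). With 1 log2 ratio per plate in limma, an alternative added after seeing the data, 0 of 10 passed (455 genes, 2.86%), with unadjusted p = 0.0118 for Rbfox1, 0.048 for Celf4 and above 0.05 for the other 8; 20.7% of all genes had an unadjusted p under 0.05. The calls thus depend on the model, and the cause of that was not tested. Elavl4 and Nova1 also lost theirs without single plates of E11, P4 or P7. By edgeR the Rbfox1 ratio rose by 2.40 ± 0.47 on the log2 scale from E11 to E13 (adjusted p = 0.000335, beside 0.264% of genes higher). The value stayed above 0 but did not pass in Pou4f1-positive cells alone (1.98 ± 0.56, adjusted p = 0.104), without E13 plate 2 (2.93, adjusted p = 0.11) and with limma (2.32, adjusted p = 0.339). It was also called higher from E15 to E18 (2.24 ± 0.48, adjusted p = 0.00617, beside 0.0378% of genes) and from P7 to the adult (2.03 ± 0.51, adjusted p = 0.0173, beside 0.548%). Both calls were lost in Pou4f1-positive cells alone (1.83 and 1.48) and with limma (2.10 and 1.99). The E15 to E18 call was also lost without E15 plate 2 (1.27), E18 plate 1 (1.42) or the 3 plates with RNA of other cells (1.37). That from P7 to the adult was lost without P7 plate 2 (1.62), adult plate 1 (1.84) or adult plate 2 (3.27), and with no filter on low counts (2.04, adjusted p = 0.0535 by edgeR).

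**Figure D5:**
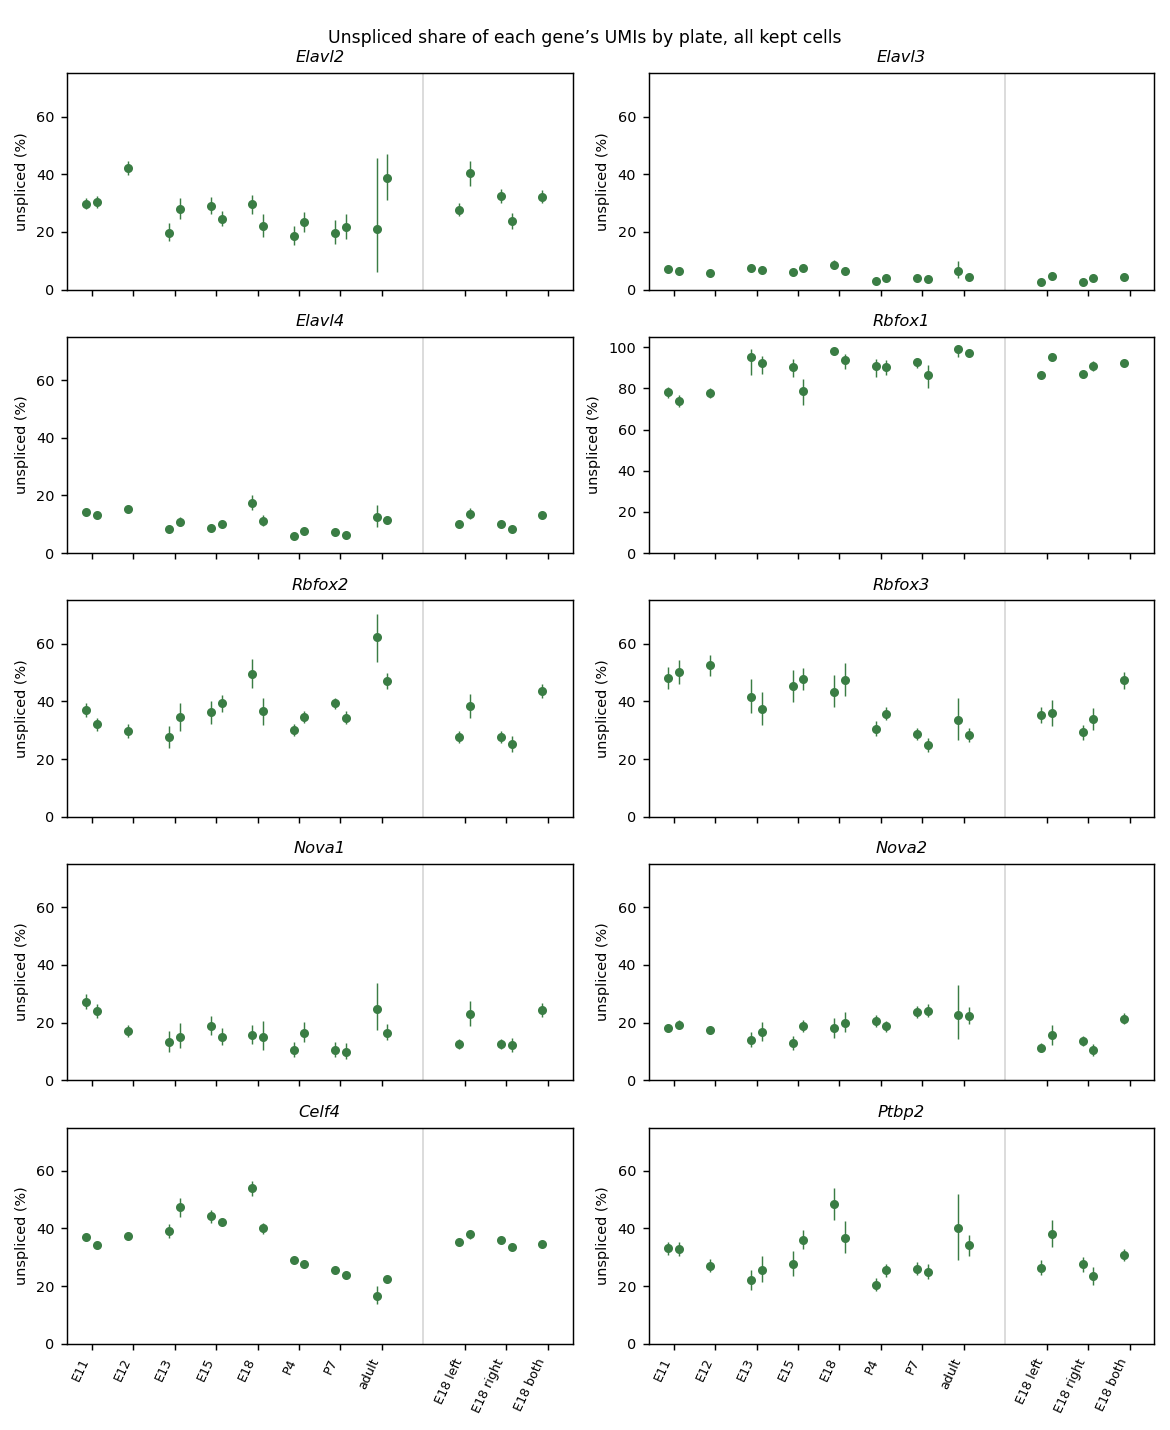
Unspliced share of each member's UMIs (y axis, %, from 0; Rbfox1 has its own range) by plate and stage (x axis), in all kept cells; bars are exact 95% binomial intervals for counting error, and the grey line separates the second set. Celf4 lies between 34.1% and 53.9% on embryonic series plates and between 16.6% and 29.1% later, and Rbfox1 is at 73.9% or more on every series plate.

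Between left and right habenula at E18 no member was called. Neither test called any gene, with 0% of 15489 genes in all kept cells and 0% of 14614 in Pou4f1-positive cells (edgeR). At an unadjusted p under 0.05 there were 182 and 155 genes (1.18% and 1.06%), with 0 members among them; DESeq2 also called 0 members. Right minus left in Pou4f1-positive cells ran from -0.42 for Rbfox1 (95% interval -1.11 to 0.26) to 0.17 for Nova1 (-0.21 to 0.54). For Elavl3 the interval was -0.33 to 0.42, and for Celf4 -0.36 to 0.38. Left plates carried more erythroid RNA, with a 3-gene list at 16841 and 14814 CPM in all kept cells against 3106 and 247 on right plates; its part was not tested.

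The second set gives a further E18 reading of some members. In its 5 plates Celf4 was at 2317, 2102, 2275, 2266 and 2540.5 CPM in Pou4f1-positive cells (left 1 and 2, right 1 and 2, both sides), near E18 plate 2 of the series (2186) and above plate 1 (1142). Elavl2 was at 233, 297, 257, 279.5 and 275 CPM, below the series plates (551 and 333) and above every P4 plate. Rbfox1 held 19.4 to 37.3 spliced CPM, more than either series plate at E18. As spliced CPM, Nova2 was at 319 ± 16.5 on the left plates, 276 ± 0.584 on the right (SD, n = 2) and 302 on that of both sides. The P4 plates of the series were at 274 ± 7.23. Elavl3 was at 1397 ± 18.0, 1406 ± 87.6 and 1304 in the same order, and at 1275 ± 38.4 at P4. Some E18 plates of this set thus lay near the P4 values in both genes. The sets differ in mouse line, so no test was made between them.

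Of 47 other RNA-binding and splicing regulators, 33 of the 45 tested differed over stages in Pou4f1-positive cells, beside the 49.4% of all genes given above. From E18 to P4, 7 of the 45 were called lower and 1 higher, beside 10.4% and 9.97% of all genes. Msi1, a translational regulator of progenitors, fell by 1.47 on the log2 scale, Ptbp1 fell by 2.05, Khdrbs1 (Sam68) fell by 1.17 and Elavl1, the broadly expressed relative of the neuronal Elavl genes, fell by 0.73. The higher one was Tardbp (0.67), named because it was the only one. Ptbp1 was at 78.4 and 28.3 CPM at E18, the first on the plate with choroid plexus RNA, and at 14.0 and 8.07 at P4. Mbnl2, which drives adult splicing in brain, was at 82.5 and 91.7 CPM at E11 and at 656 and 541 in the adult (adjusted p over stages 0.000158). Srrm4, which promotes neuronal microexons, was at 178 and 183 CPM at E11 and 34.2 and 40.1 in the adult (adjusted p 9.58e-05).

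In the comparison of Pou4f1-positive with other cells, 10 of 41 other regulators tested were called higher and 7 lower, shares near the 19.2% and 16.6% of all genes. Srrm3 (1.78), Celf5 (1.73), Celf6 (1.48) and Celf3 (1.04) were higher, as were Msi2 (0.98) and Srrm4 (0.82). Qk, the quaking protein of glia (-1.74), Ptbp1 (-1.71) and Mbnl1 (-0.77) were lower. After thinning to 2000 UMIs, 6 of 40 were higher and 1 lower, beside 5.17% and 4.77% of genes: Srrm3, Celf5, Celf6, Msi2 and Qk kept their calls, Celf3, Srrm4 and Mbnl1 did not, and Ptbp1 did not pass the filter on low counts. In the second set 6 of 43 were higher and 3 lower, beside 6.71% and 10.8% of genes, without Srrm4 and Mbnl1. Celf3, Celf5 and Celf6 had the direction of Celf4, and Ptbp1 the direction opposite to Ptbp2, on the series plates; in the second set Ptbp2 itself did not pass (0.22, adjusted p = 0.318 by edgeR).

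For each member, the 2 genes with the most similar course were those with the highest Pearson correlation of log2(CPM + 1) over the 15 plates in all kept cells, among 8483 genes with a mean of at least 20 CPM, the 10 members left out. For Elavl2 they were Sox11 (0.990), a transcription factor of immature neurons, and Ssbp3 (0.990). For Rbfox3 they were Kcnma1 (0.949), a large-conductance potassium channel, and Gria2 (0.946), an AMPA receptor subunit. The genes nearest to Elavl4 were Ap1ar (0.956) and Mllt11 (0.956), and to Elavl3 Uchl3 (0.948) and Tmem57 (0.948). Tmem57 (0.972) was also the nearest to Nova2, before Gars (0.970). Nova1 was nearest to Rsrc1 (0.947) and Idnk (0.941), Celf4 to Fam241b (0.969) and Ttc3 (0.908), Ptbp2 to Riok3 (0.973) and Ube4b (0.970), and Rbfox2 to Prmt2 (0.966) and Tab3 (0.948). Rbfox1 had the lowest nearest values, Zfpm2 (0.871) and Ldah (0.868). Plates share cell makeup and depth across genes, so these values only describe likeness.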

How the data were processed

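The authors deposited, for each set of plates, tables of total, spliced and unspliced expected counts per gene and well: UMI counts corrected for UMI collisions, as found from the values, which all became whole on inverting that correction with 4096 possible UMIs. Per the submitters' processing notes, STAR 2.5.3a, Trim Galore and mm10 were used; for the counter and annotation, the sources used here give no name. The design had assumed whole counts; since the tables hold expected counts, deposited values were summed per plate and rounded.

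A well was kept if it held at least 1000 counts (spike-ins and mitochondrial genes not counted) from at least 500 genes, with no more than 20% of counts mitochondrial. The 92 spike-in rows stayed out of library sizes and tests. No doublet caller was run. Pou4f1-positive cells had at least 1 Pou4f1 UMI, and a plate entered with at least 10 cells of a kind. Sums were tested with edgeR 4.0.16 (quasi-likelihood, TMM, its expression filter; tested on simulated data), adjusted over all genes; DESeq2 1.42.0 and limma 3.58.1 (ratio with 0.5 added) were alternatives. The stage fit used 14 plates of 7 stages, without the single E12 plate. The SE of an edgeR fold change was worked out as its absolute log2 value over the square root of the F statistic. Its 95% interval used the t distribution, so both are approximate. Intervals on levels and shares are exact, at 95%, and cover counting error only. Gene coordinates are from GENCODE M21 (GRCm38), in which 37938 of 37994 gene IDs were found.

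Named are all 10 members, relatives among 47 other regulators where they passed a test or stand beside a relative, and the 2 genes most like each member. Members and lists were chosen with earlier results of these data known.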

Additional observations from a re-analysis of the deposited data

How the results depend on the processing

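The number of members called over stages in all kept cells, 4, was 8 with DESeq2, 9 without a filter on low counts and 8 without the 3 plates with RNA of other cells (E13 plate 2, E18 plate 1, adult plate 1), and 3 to 10 when 1 plate was left out (9 without E18 plate 1 and 10 without E18 plate 2). The number of calls over single steps in all kept cells, 4, was 15 without the filter, 7 without the 3 plates and 0 to 20 with 1 plate left out: 20 without E18 plate 2, 8 without E18 plate 1, 2 without E11 plate 1 or 2 or P7 plate 1 or 2, 1 without P4 plate 1 and 0 without P4 plate 2. In Pou4f1-positive cells the stage count of 8 ranged from 6 to 9 with 1 plate left out, and the step count of 4 from 2 to 5 (2 without P4 plate 1 or 2), with 10 without the filter. The count of 6 for unspliced against spliced was 4 to 6 with 1 plate left out and 0 with limma. That of 8 for Pou4f1-positive against other cells was 8 to 9 with 1 plate left out (the ninth being Rbfox1, lower) and 3 after thinning to 2000 UMIs, and Elavl2 turned to -0.076 in the second set. Left against right stayed at 0 in every fit run. The fits without those 3 plates, on spliced counts alone and with limma were chosen after seeing the data. Single results were tallied for the tests over all stages, for Pou4f1-positive against other cells and for the single steps called in the main fit. Over these and their alternatives, 983 stayed on their side of the threshold, 98 lost a call, 40 gained one and 1 reversed. Single steps and left against right results not called in the main fit were left out, so calls gained there are not among the 40. Direction was compared only where a fold change was given and the main or the alternative fit was called. Tests over all stages give no direction. The causes were not tested, the smaller number of samples in a fit without a plate among them.

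Plates of 2 stages share replicate numbers only as numbers: of 21 pairs of stages, 4 had a correlation of same-numbered deviations above 0.1 (range -0.36 to 0.25). For left against right this correlation was 0.23. With a replicate block the counts were 4 (stages) and 3 (steps, without the call of Elavl2 from P7 to adult) in all kept cells, 8 and 4 in Pou4f1-positive cells, and 0 for left against right.

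Adult plate 1 gave 21 Pou4f1-positive cells, and the spliced Rbfox1 UMIs on it were 1, so that its values there are the least certain.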
